A study of Mus musculus with 8 samples.

Results

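In aged mouse cortex, 518 of the 2055 RNA positions that the authors listed as differing with age lay within 10 bases of another listed position of the same gene. These clustered edited sites were chosen by position alone: a site was kept when its nearest listed neighbour in the same gene and chromosome was at most 10 bases away, and the gene CT010467.1, with 67 listed sites, was left out. They formed 231 clusters in 115 of the 789 listed genes, and 287 pairs of neighbours. Of the clusters, 187 held 2 sites, 36 held 3, 5 held 4, 2 held 5 and 1 held 6. The other 1470 sites, outside CT010467.1, had no neighbour that close.

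The study compared aged with young cortex cells of mice carrying APOBEC1-YTH. All 8 libraries belonged to the aged group, APOBEC1-YTH mice aged 12 to 14 months when tamoxifen began (20 mg/kg every 24 h for 5 days), with cortex taken 7 days after the last dose. The libraries were 4 lanes of each of 2 sublibraries, and how many mice they came from is not stated in the labels. The 2623 young cells, from a companion series, and the 846 aged cells enter through the authors' deposited table, so age and series cannot be told apart. The genotype is named as APOBEC1-YTH alone in the labels, with no promoter or driver of the fusion. The sample protocols describe dissociated whole cortex cells and the series' design text sorted neuronal nuclei, so the cell types behind a value are uncertain. No marker of a cell type could be read from this table, which holds edited sites and no expression levels.

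N6-methyladenosine (m6A) is a methyl mark placed on adenosines of mRNA and long noncoding RNA by the Mettl3 and Mettl14 methyltransferase, and YTH-domain proteins bind it. The mark forms mostly where the A stands before a C. In scDART-seq, the YTH domain brings the cytidine deaminase APOBEC1 to the mark, and the C beside the methylated A is converted to U, which reads show as a C-to-U change. Neighbouring edited cytidines may therefore report separate m6A residues or conversion of several cytidines around a single one, and the table does not separate these cases. The mark is abundant in the brain, lies mostly in 3' UTRs and near stop codons, and is found on many synaptic transcripts.

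For each site and age the table gives the mean C-to-U over all cells and the share of cells called methylated there. Dividing the mean by the share gives the C-to-U within methylated cells. A cell with no read at the site counts as unmethylated, so RNA level and read coverage enter both the share and the mean. They also enter the fraction within methylated cells, which is computed from both. Their part in the values below was not tested. There are no values per mouse or library and no read depth, so no value has a replicate error. Shares of cells carry Clopper-Pearson 95% intervals, which cover counting error only. A site entered the table only with an adjusted p under 0.05 in the authors' deposited table, an absolute log2 ratio of at least 0.58 and at least 25 methylated cells over both ages. "Rose" and "fell" below refer to the mean at such sites. Shares and values within methylated cells are described without a test.

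The clusters below show the forms that neighbouring sites took. Sequences are the transcript strand, 5' to 3', from GENCODE M21 transcripts (GRCm38, the mm10 build), and capitals mark the listed edited C. The first 3 are in 3' UTRs of synaptic and membrane protein genes, and each site marked in them fell. The next 3 hold 2 listed C side by side. Then come coding clusters and noncoding clusters of Meg3 that the results turn on.
App, chr16:84955172-84955186, minus strand, 3' UTR: ctgtaaCaCaagtag
Gria2, chr3:80688218-80688236, minus strand, 3' UTR: acttgaCatCaaCtgcatc
Gria3, chrX:41676528-41676549, plus strand, 3' UTR: ttgcgaCaatgcaaaCcatcat
Ywhaz, chr15:36771546-36771559, minus strand, 3' UTR: aaaaaaCCgctaat
Grin2b, chr6:136171742-136171755, minus strand, 5' UTR: agagaaCCcaaccc
Cd47, chr16:49912259-49912275, plus strand, 3' UTR: aaaaaaCCaaCggtcct
Rbm25, chr12:83668186-83668204, plus strand, coding sequence: agagaaCgggaaCgggaaa
Rbm25, chr12:83664063-83664090, plus strand, coding sequence: agggaaCgagaaaggCgagaaCgggaac
Lrrfip1, chr1:91110390-91110406, plus strand, coding sequence: aaggagCgaaCgagatg
Usp34, chr11:23388751-23388766, plus strand, coding sequence: ataaatCaaCaagctc
Nrd1, chr4:109013639-109013663, plus strand, coding sequence: tgatgaCgaCgaCgacgaCgatgat
Meg3, chr12:109559815-109559843, plus strand, noncoding exon: ggaCaCataggaaaCtgtaaCaagaCaga
Meg3, chr12:109560716-109560741, plus strand, noncoding exon: gcaagaCaaaCaCaggaaaCaaaatt
Each window holds at least 1 edited C after an A, with a second edited C after an A in some and after C, G or T in others. In the Rbm25 windows the letters gaaCg recur.

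By mean C-to-U, the clustered sites fell more often than they rose. The mean rose with age at 160 of 518 clustered sites (30.9%), against 41.5% of all 2055 listed sites and 681 of 1470 (46.3%) of the sites with no close neighbour. The median log2 ratio of aged to young was -1.15 at clustered sites and -0.87 at all listed sites. The share of methylated cells moved the other way: it was higher in aged cells at 373 of 518 clustered sites (72.0%), against 75.4% of all listed sites. Among sites with no close neighbour the share was higher at 1175 of 1470 (79.9%). C-to-U within methylated cells was higher at 146 of the 514 clustered sites with a methylated aged cell (28.4%), against 31.9% of listed sites. At 215 clustered sites (41.5%) a larger share of aged cells carried the edit while the mean fell, against 725 listed sites (35.3%). These differences from the background were not tested, because sites of a gene share cells and reads.

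Clustered sites were edited in more cells and at a lower fraction than sites with no close neighbour. The median clustered site had 45 methylated young and 26 methylated aged cells, against 26 and 18 at sites with no close neighbour. The fraction inside its methylated cells was 11.1% at the young and 3.11% at the aged stage, against 23.0% and 11.4%. At 4 clustered sites, in Dpysl2, Ppp3ca, Kif17 and Gria3, no aged cell was methylated, and a count of 0 among 846 cells allows a share of up to 0.355%. The adjusted p-values of the clustered sites in the authors' deposited table ran from 1.00e-172 to 0.0489, with a median of 4.18e-06.

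Clustered sites differed by place in the transcript, much as all listed sites did. In 3' UTRs, which held 201 of the 518 sites, the mean rose at 40 (19.9%) and the share of methylated cells was higher at 76 (37.8%), against 24.1% and 49.2% of all listed 3' UTR sites. These 201 include most of the 29 clustered sites of Snhg11, annotated with a coding sequence but grouped below with long noncoding RNAs. Of those 29, 13 rose and 25 had a higher share. In coding sequence the mean rose at 57 of 147 sites (38.8%), while the share was higher at 142 (96.6%), against 57.8% and 94.7% of all listed coding sites. Noncoding exons had a higher mean at 59 of 150 sites (39.3%) and a higher share at 137 (91.3%), against 40.0% and 78.2% of all listed sites there. All listed sites there include those of CT010467.1, which was left out of the clusters. At 251 noncoding sites with no close neighbour, outside that gene, the mean rose at 117 (46.6%) and the share was higher at 227 (90.4%). In 5' UTRs the mean rose at 4 and the share was higher at 18 of 20 clustered sites. The fraction within methylated cells differed between these places in aged cells: its median was 15.4% in 3' UTRs, 1.53% in coding sequence and 0.712% in noncoding exons. In young cells the same medians were 16.4%, 10.6% and 4.04%. The median fraction was thus close between the ages in 3' UTRs and lower in aged cells elsewhere, while shares were mostly lower in 3' UTRs and higher elsewhere. In coding sequence with no close neighbour the mean rose at 408 of 657 sites (62.1%); this difference was not tested.

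Neighbours within 10 bases moved together in the share of methylated cells and less uniformly in the mean. The share changed in the same direction at both sites of 271 of 287 pairs (94.4%), with 198 pairs higher and 73 lower. Since the share was higher at 72.0% of clustered sites, some agreement would be seen between unrelated sites too. Among 913 consecutive listed sites of a gene more than 10 bases apart, 82.9% had the same direction of share. The mean changed in the same direction in 213 of 287 pairs (74.2%), 163 falling and 50 rising, against 59.4% of the pairs further apart. Within methylated cells the direction was the same in 221 of 283 pairs (78.1%), against 63.0% of the pairs further apart. In the 115 genes that hold clusters, pairs further apart had the same direction of mean in 348 of 587 cases (59.3%). A cluster of 3 or more sites gives pairs that share a site, and pairs of a gene share cells, so no test was made of these differences.

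The size of the age ratio differed between neighbours even where the direction did not. The median gap between the log2 ratios of neighbours was 1.15 for the mean (quartiles 0.42 and 2.41, n = 283) and 0.50 for the share (0.23 and 0.84). The gap in the mean was over 1 in 155 pairs and over 2 in 88, and the gap in the share was over 1 in 51. Pairs further apart had median gaps of 1.62 and 0.63. Across the 283 pairs, which share genes and cells, Pearson's r between the log2 ratios of neighbours was 0.39 for the mean and 0.89 for the share. So the share of cells followed its neighbour closely in the plot of age ratios, and the mean did so loosely.

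**Figure D1:**
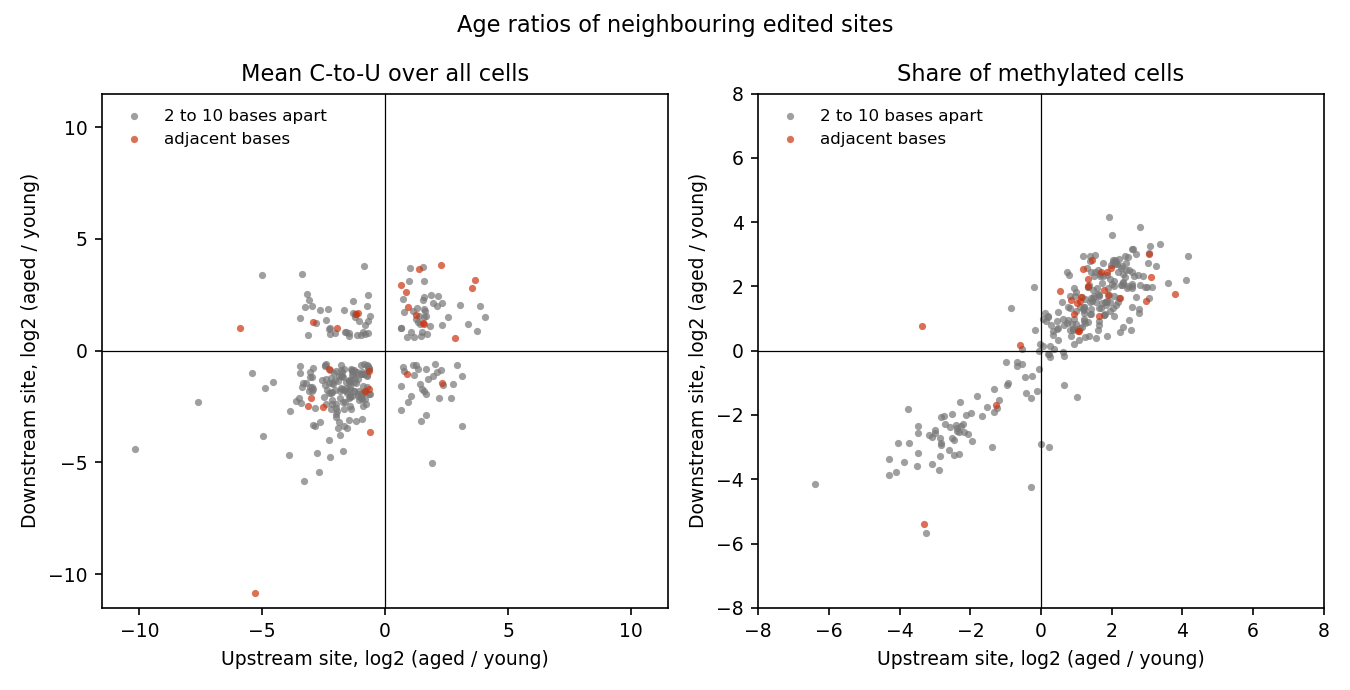
Each point is 1 of 283 neighbouring pairs; the axes give the log2 ratio of aged to young at the upstream and downstream site, for mean C-to-U over all cells (left) and for the share of methylated cells (right). Share ratios lie along the diagonal, with r of 0.89, while mean ratios fill all quadrants, with r of 0.39.

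Agreement in the mean was higher at short distances than far apart and had no single step at 10 bases. The same direction was seen in 20 of 27 pairs of adjacent bases (74.1%), 49 of 60 pairs at 2 to 3 bases (81.7%), 55 of 76 at 4 to 5 (72.4%) and 89 of 124 at 6 to 10 (71.8%). Beyond the limit it was seen in 91 of 141 pairs at 11 to 20 bases (64.5%), 104 of 169 at 21 to 50 (61.5%), 100 of 177 at 51 to 200 (56.5%) and 247 of 426 at more than 200 (58.0%). Just inside the limit, at exactly 10 bases, 10 of 13 pairs agreed, and just outside it, at 11 bases, 16 of 18 did. For the share, agreement was 60 of 60 pairs at 2 to 3 bases and 156 of 169 (92.3%) at 21 to 50 bases, and fell to 324 of 426 (76.1%) beyond 200. Agreement in shares thus extended well past the 10 bases that define a cluster.

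**Figure D2:**
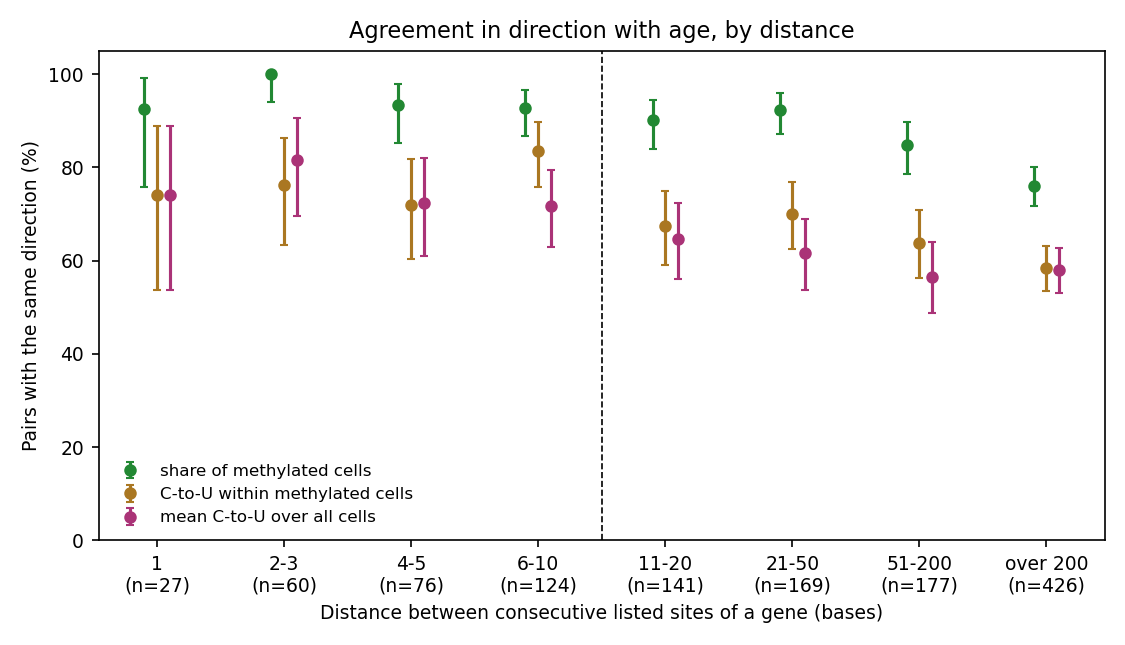
Percent of consecutive listed sites of a gene with the same direction of change with age, by the distance between them in bases; bars are Clopper-Pearson 95% intervals that treat pairs as independent, and the dashed line marks 10 bases. Agreement in the share stays above 90% up to 50 bases, and agreement in the mean goes from 81.7% at 2 to 3 bases to 58.0% beyond 200.

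By place, the same direction of mean was seen in 89 of 112 pairs in 3' UTRs (79.5%), 57 of 80 in coding sequence (71.3%), 58 of 84 in noncoding exons (69.0%) and 9 of 11 in 5' UTRs. The corresponding percentages for pairs more than 10 bases apart were 71.2%, 53.1%, 61.9% and 59.1%. For the share, the 3' UTR had the lower agreement, at 99 of 112 pairs (88.4%), while coding sequence had 79 of 80 (98.8%). Pairs more than 10 bases apart had 72.6% in 3' UTRs and 93.5% in coding sequence. Agreement in coding sequence was thus high at either distance. The share was higher at 96.6% of clustered coding sites and at 94.2% of coding sites with no close neighbour. Most pairs there would therefore agree even if neighbours were unrelated.

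In the fraction within methylated cells, neighbours also differed more from each other in aged than in young cells. For C-to-U within methylated cells, the median absolute log2 ratio between neighbours came to 0.46 in young and 1.07 in aged cells, and the neighbours were further apart in aged cells in 208 of 283 pairs (73.5%). Fewer aged than young cells stand behind these values. In the 39 pairs with at least 50 methylated cells at each age in both sites, the ratio was 0.69 in young and 0.95 in aged cells, and 28 of 39 pairs (71.8%) were further apart in aged cells. For the share the distance between neighbours was similar at both ages, at 0.65 in young and 0.55 in aged cells. The site with the higher mean was the same at both ages in 151 of 231 clusters (65.4%).

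The base before the edited C was A at 370 of 518 clustered sites (71.4%), against 1153 of 1464 sites with no close neighbour (78.8%). With a purine before that A, the RAC form of the m6A consensus, the counts were 340 clustered sites (65.6%) and 1086 sites with no close neighbour (74.2%). Clusters were nonetheless built around such sites: 229 of 231 held at least 1 C after an A, and the exceptions were a cluster of Ahi1, a gene of primary cilia, and one of Malat1. In 91 clusters each listed C followed an A. Between the first and the last site of each cluster lay 589 C in all, of which 518 were listed, namely 370 of 394 C after A (93.9%) and 148 of 195 other C (75.9%). The ends of a cluster are listed by definition, and a C that is not listed may still have been edited, since the table holds sites that differed with age.

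Cytidines that do not follow an A were listed at a higher rate at some places around one that does. The letters around 1467 listed C that follow an A and lie at least 10 bases inside an exon were searched on the transcript strand for each further C. Of C not after A, 40 of 191 standing 3 or 4 bases upstream were listed (20.9%), against 43 of 933 standing 5 to 10 bases upstream (4.61%) and 16 of 302 standing 3 or 4 bases downstream (5.30%). At 2 bases upstream it was 0 of 19. The base directly downstream was the other such place: 27 of 194 C there were listed (13.9%), against 5.0% at 2 bases downstream. A further C after an A was listed at 143 of 708 upstream (20.2%) and 145 of 920 downstream (15.8%). These 3 places held 67 of the 160 listed C not after A counted in this way (41.9%), and the others were spread over the remaining places at lower rates. The rates were not tested against each other.

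**Figure D3:**
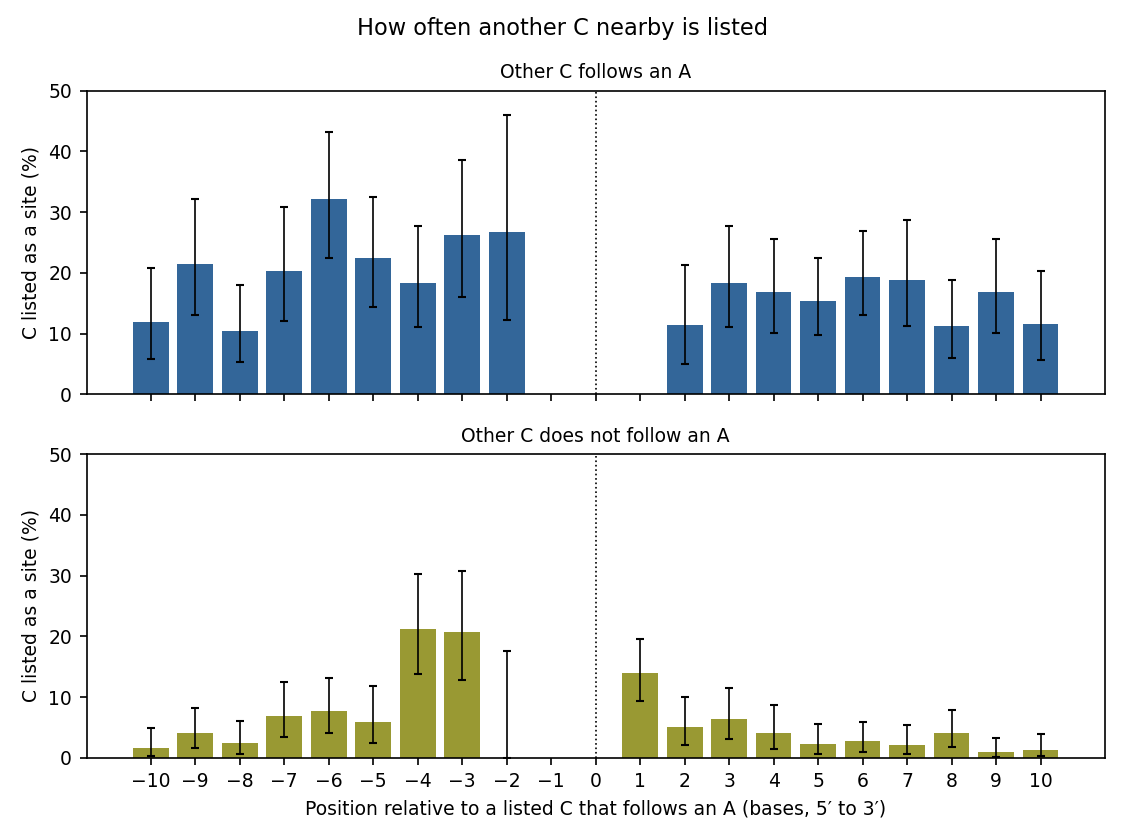
Percent of nearby C that are themselves listed, by their position in bases from a listed C that follows an A, for C that follow an A (top) and other C (bottom); bars are Clopper-Pearson 95% intervals. Other C stand out at 3 and 4 bases upstream, with 20.7% and 21.2%, and at 1 base downstream, with 13.9%.

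The upstream form made up 40 pairs in 22 genes. The upstream C followed T in 16, G in 13 and C in 11. It is seen above in Gria2 as CatCaaC, in Lrrfip1 as gCgaaC and in Usp34 as tCaaC, and it also occurred in Ttc3, a ubiquitin ligase, and in Add2, the cytoskeletal protein beta-adducin.
Ttc3, chr16:94442556-94442571, plus strand, coding sequence: gaaactCgaCagatac
Ttc3, chr16:94442624-94442639, plus strand, coding sequence: tgtgatCgaCaactgc
Add2, chr6:86118625-86118640, plus strand, coding sequence: tgatggCgaCagctac
Both sites of such a pair fell in 23 cases and rose in 7. C-to-U within methylated cells was higher at the C after A in 30 of 40 pairs in young cells and in 23 of 40 in aged cells. The number of methylated cells did not follow this order: the C after A had the larger share in 19 of 40 pairs in young and 17 of 40 in aged cells.

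In the 27 pairs of adjacent bases, in 17 genes, the first C followed an A in each, so each read ACC. Malat1, a nuclear long noncoding RNA, held 9 of them. Both C rose in 11 pairs and fell in 9. The first C fell and the second rose in 5 pairs, in Ywhaz, Celf5, Nrgn and 2 places of Malat1, and the reverse was seen in 2, in Syt1 and Malat1. The first C had the higher mean in 19 of 27 pairs in young cells and 14 of 27 in aged cells, and more methylated cells in 19 of 27 at both ages. Without Malat1 it had the higher mean in 13 of 18 pairs in young and 8 of 18 in aged cells. Over all 154 pairs with an A before only 1 of the sites, that site had the higher mean in 91 (59.1%) in young and 78 (50.6%) in aged cells. By mean, the order between the C after A and its neighbour was nearer to even in aged cells in these counts. By number of methylated cells the order was the same at both ages in the adjacent pairs. Without Malat1, the first C of adjacent pairs had more methylated cells in 11 of 18 pairs in young and 13 of 18 in aged cells. Over all 154 pairs, the C after A had the larger share of methylated cells in 82 (53.2%) in young and 72 (46.8%) in aged cells. The differences between the ages were not tested.

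The 6 clusters with the largest falls in summed mean C-to-U lay in App, Tulp4, Gria3, Gria2, Cx3cl1 and Snap25. App encodes the amyloid precursor protein. At its 3' UTR cluster, in exon 16 of 16, the mean went from 9.43% in young to 2.20% in aged cells at position 84955178 and from 4.55% to 0.405% at 84955180. The numbers of methylated cells were 841 young and 26 aged at the first and 488 and 8 at the second, which are shares of 32.1% (30.3 to 33.9) against 3.07% (2.02 to 4.47) and 18.6% (17.1 to 20.1) against 0.946% (0.409 to 1.85). Within the methylated cells the fraction was higher in aged cells, at 71.5% against 29.4% and 42.8% against 24.5%. Both App sites thus had fewer methylated aged cells and a higher fraction within them, and the part of read coverage in either was not tested. Their adjusted p-values in the authors' deposited table were 2.27e-05 and 1.73e-06. The other App cluster, 84955284 to 84955298, had the same form at its 3 sites, with means of 1.63%, 2.59% and 1.85% in young and 0.328%, 0.790% and 0.244% in aged cells.

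Gria2 and Gria3 encode subunits of the AMPA receptor, the main fast glutamate receptor. The Gria2 cluster at 80688224, 80688227 and 80688230, in the last exon, had means of 7.28%, 2.81% and 3.23% in young and 1.76%, 1.03% and 1.43% in aged cells. Its middle C follows T, and had the lowest mean at both ages. In Gria3 the mean went from 9.85% to 1.27% at 41676534, with 582 young and 14 aged methylated cells. Its neighbour at 41676543 went from 1.27% in 111 young cells to no methylated aged cell. In the 4 Gria2 clusters together, 0 of 14 sites rose by mean and 0 by share.

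Tulp4, a tubby-like protein, had both its sites in the 5' UTR of exon 1, 4 bases apart. Their means were 6.28% and 6.71% in young and 1.13% and 1.58% in aged cells. The neighbours had 272 and 294 methylated young cells and 13 and 23 aged cells. Cx3cl1 encodes fractalkine, a neuronal ligand of the microglial receptor Cx3cr1, and its 3' UTR sites 94780888 and 94780891 went from 5.95% and 4.69% to 1.51% and 0.663%. Snap25, a SNARE protein of vesicle fusion, held the cluster with the most sites, 6 over 37 bases of the 3' UTR from 136781763 to 136781799. Their young means lay between 1.13% and 3.28% and their aged means between 0.252% and 1.11%, and each site fell. The aged methylated cells numbered 13 to 23 at these sites, against 231 to 517 young cells.

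**Figure D4:**
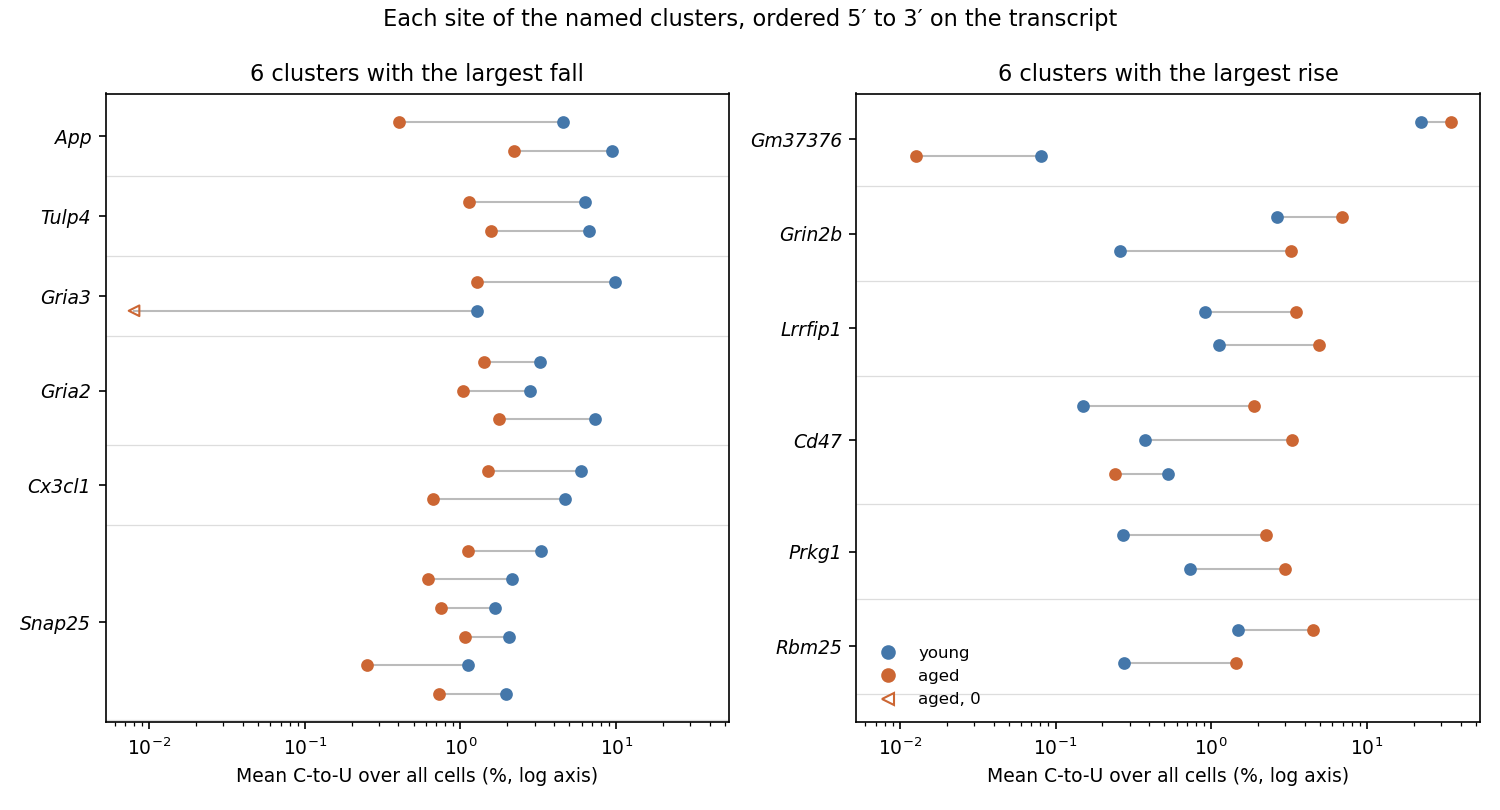
Points give the mean C-to-U of all cells (percent, log axis) at each site, young and aged, of the 6 clusters with the largest fall and the 6 with the largest rise. In the falling clusters the aged point lies left of the young point at each site, and Gria3 has a site at 0 in aged cells; the rising Cd47 and Gm37376 clusters each hold a site that fell.

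The 6 clusters with the largest rises lay in Gm37376, Grin2b, Lrrfip1, Cd47, Prkg1 and Rbm25. Grin2b encodes an NMDA receptor subunit, and its 2 adjacent C lie in the 5' UTR, in exon 2 of 14. At the C after A the mean went from 2.66% to 6.88%, and 11.7% (10.5 to 13.0) of the young and 26.8% (23.9 to 30.0) of the aged cells were methylated. At the C beside it the mean went from 0.259% to 3.23%, and 2.29% (1.75 to 2.93) and 13.2% (11 to 15.7) were methylated. The second C was below the first at both ages but rose by a log2 ratio of 3.64 against 1.37. Their adjusted p-values in the authors' deposited table were 7.45e-34 for the C after A and 3.68e-40 for the other.

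Rbm25 is a splicing regulator with a repeated arginine- and glutamate-rich coding stretch. Its sites 83668192 and 83668198, in exon 11 of 19, went from 1.49% and 0.274% to 4.51% and 1.44%. In the cluster upstream of it, 83668144 and 83668150 went from 0.266% and 0.453% to 0.774% and 2.19%, while 83668156, 6 bases further on, went from 0.0552% to 0.0299%. The share was higher in aged cells at each of these 5 sites. At 83668156 it was 0.496% (0.264 to 0.846) in young and 3.31% (2.21 to 4.75) in aged cells, while the fraction within those cells was 11.1% and 0.902%. A single Rbm25 cluster thus held sites that rose and fell although the edit was found in a larger share of aged cells at each.

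Lrrfip1, a leucine-rich repeat interacting protein, had coding sites at 91110396 and 91110400 that went from 0.910% and 1.13% to 3.5% and 4.92%. Within methylated cells these sites were edited at 64.5% and 59.2% in young and 65.8% and 78.5% in aged cells, well above the median clustered site. Prkg1, a cGMP-dependent protein kinase, went from 0.273% and 0.731% to 2.25% and 2.98% at coding sites 31664150 and 31664146 in exon 1 of 18. Its fraction within methylated cells was also high, from 59.6% to 74.2% over sites and ages. Cd47, the membrane protein that restrains phagocytosis through Sirpa, had 2 adjacent C that rose, from 0.149% and 0.378% to 1.90% and 3.32%. A C after A 3 bases downstream fell from 0.529% to 0.241%, with 33 young and 14 aged methylated cells. Gm37376 is antisense to Malat1 and its assignment is in doubt, since the strand used in counting is not given. Its sites 5802223 and 5802232 went from 22.2% to 34.9% and from 0.0802% to 0.0127%.

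Of the other clusters with 4 sites, those of Ppp3ca, Nrd1 and Syt1 fell at each site, that of Srrm2, a splicing scaffold protein, rose at 1 of 4 sites, and that of Meg3 is given below with the opposite pairs. Ppp3ca, the catalytic subunit of calcineurin, had 4 sites within 17 bases of its 3' UTR that fell from 3.06%, 0.469%, 1.15% and 1.75% to 0.470%, 0.0110%, 0.582% and 0.401%. The site with the low aged value, 136935667, follows T and had 3 aged methylated cells. A Ppp3ca pair nearby had the same arrangement: 136935746, after T, went from 1.29% to 0.00663% with 259 young cells and 1 aged cell, and 136935750, after A, from 5.23% to 1.08% with 717 and 13. Nrd1, the metalloprotease nardilysin, had 4 listed C of a gaC repeat in exon 2 of 31 that went from 0.317%, 0.0948%, 0.102% and 0.626% to 0.183%, 0.0180%, 0.0193% and 0.416%. A further C of the same repeat, shown in lower case above, was not listed. At each Nrd1 site the share was higher in aged cells, from 15.1% (12.8 to 17.7) against 3.81% (3.11 to 4.62) at 109013657 to 1.54% (0.821 to 2.61) against 0.610% (0.349 to 0.989) at 109013651. Syt1, the calcium sensor of vesicle release, had 4 sites over 21 bases of its 5' UTR that likewise fell in mean, from values of 0.0189% to 0.179% in young to 0.00927% to 0.118% in aged cells, with the share higher at each.

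In 74 of the 287 pairs, in 38 genes, the neighbours moved in opposite directions by mean. The listing threshold makes such pairs differ widely, and the smallest gap between their log2 ratios was 1.43. In 69 of the 74 the share nevertheless moved the same way, and in 67 of them it was higher in aged cells at both sites. The fraction within methylated cells, which is the mean over the share, therefore had to part in these pairs and is given as a description. At the site that fell its median was 9.35% in young and 0.70% in aged cells, and at the site that rose 7.92% and 6.15%. The fraction moved in the same direction at both sites in 45 of the 74 pairs (60.8%), so in those the sites differed in the size of its change.

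Ywhaz, a 14-3-3 adaptor protein, gave the opposite pair with the highest summed young mean after that of Gm37376. At 36771553, the C after A, the mean went from 5.27% to 0.0874%, and 12.2% (10.9 to 13.5) of the young and 1.18% (0.568 to 2.16) of the aged cells were methylated. At 36771552, the C directly downstream, it went from 2.38% to 4.80%, with 3.81% (3.11 to 4.62) and 6.5% (4.93 to 8.38). These intervals cover counting error only, and both sites were listed because their mean differed with age. This pair differed in share as well as in fraction, with 319 young and 10 aged cells at the first C and 100 and 55 at the second. The C after A was the higher of the pair in young cells and the lower in aged cells.

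Meg3, an imprinted neuronal long noncoding RNA, held 20 of the 74 opposite pairs. In its cluster of 5 sites, 109559820 went from 0.449% to 0.0138%, and its neighbours at 109559818 and 109559829 went from 0.0874% to 0.324% and from 0.0714% to 0.747%. The share at 109559820 was 3.01% (2.39 to 3.74) in young against 4.96% (3.6 to 6.65) in aged cells, while the fraction was 14.9% and 0.279%. The last sites of this cluster, 109559835 and 109559840, also rose, from 0.168% to 0.382% and from 0.116% to 0.177%. In the 4-site cluster 109560722 to 109560735, the site 109560728 went from 0.103% to 0.00988%. Its 3 neighbours rose, from 0.0900%, 0.0346% and 0.0379% to 0.272%, 0.298% and 0.411%. In both clusters a single site fell among rising neighbours, and each of these C follows an A.

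The other opposite pairs with the widest gaps had low means. In Rbm25, 83664078 went from 0.0812% to 0.00901% and 83664084 from 0.273% to 1.59%. In Strbp, an RNA-binding protein, 37645545 went from 0.103% to 0.0107% and 37645540 from 0.0363% to 0.140%, with 13 and 23 aged methylated cells. In Hsp90aa1, a cytosolic chaperone, 110694131 went from 0.122% to 0.0142% and 110694126 from 0.0858% to 0.411%, but the bases around both sites also occur in another annotated gene. These pairs rest on few cells, from 8 to 52 per site and age.

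At the other end, 4 pairs with at least 50 methylated cells at each age had nearly the same ratio. In Malat1, 5797209 went from 0.271% to 0.168% and 5797206 from 0.0641% to 0.0396%, log2 ratios of -0.69 and -0.69. In Meg3, 109560032 and 109560038 went from 0.129% and 0.116% to 0.0479% and 0.0454%, and 109546525 and 109546529 from 0.136% and 0.158% to 0.0451% and 0.0495%. In Snhg11, a neuronal snoRNA host transcript, 158382684 and 158382694 went from 0.111% and 0.319% to 0.347% and 1.09%. In the Meg3 pairs both the levels and the ratios of the neighbours were close, while in Malat1 and Snhg11 the levels differed and the ratios were close.

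By gene group, the clustered sites of calcium signalling genes mostly fell: 4 of 41 sites in 8 genes rose, and 14 of 18 clusters fell at each site. Of all clustered sites 30.9% rose, and of those in 3' UTRs 19.9%, while 124 of all 231 clusters fell at each site. Ppp3ca alone gave 10 of the 41 sites, and 0 of the 10 rose. Calm3, a calmodulin gene, went from 4.32% and 3.69% to 1.59% and 0.750% at 16916884 and 16916886. Camk2n1, which inhibits CaM kinase II, went from 2.47% and 6.01% to 1.31% and 1.61% at 138457648 and 138457652. The median log2 ratio of this group was -1.46, against -1.15 over all clustered sites and -0.87 over all listed sites.

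Of the sites of vesicle release genes, 7 of 40 in 7 genes rose (17.5%), and 11 of 16 clusters fell at each site. Beside these groups, 30.9% of all clustered sites rose, and 19.9% of those in 3' UTRs. Of all 231 clusters, 124 fell and 37 rose at each site. Snap25 belongs here, and its pair at 136781687 and 136781692 went from 3.49% and 2.31% to 1.29% and 0.694%. Postsynaptic receptor and scaffold genes rose at 7 of 29 sites in 7 genes (24.1%), with 7 of 11 clusters falling and 2 rising at each site. Gria2 alone gave 14 of these 29 sites, and 0 of the 14 rose. Of the group of microtubule, ankyrin and spectrin genes, Kif1a and Stmn2 held clusters, and 1 of 8 sites rose. Kif1a, a kinesin of synaptic vesicle precursors, held that site: 93073846 went from 0.623% to 2.57% while 93073842, 4 bases away, went from 0.0505% to 0.0331%. Stmn2, which binds tubulin in axons, fell from 0.652% and 0.540% to 0.133% and 0.0335% at 8560447 and 8560452.

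The sites of RNA genes rose about as often as all listed sites, of which 41.5% rose and 75.4% had a higher share. Of all clustered sites, 30.9% rose and 72.0% had a higher share. In coding sequence these were 38.8% and 96.6% of clustered sites, and in noncoding exons 39.3% and 91.3%. Splicing and RNA-binding genes rose at 14 of 33 sites in 7 genes (42.4%), and the share was higher at 33 of 33. The clusters of this group, except that of Rbfox1, lay in coding sequence. Long noncoding RNAs, which held 166 sites in 74 clusters, rose at 65 (39.2%), with the share higher at 154. In Meg3 the pair 109545885 and 109545888 went from 1.55% and 0.369% to 3.75% and 1.38%. Protein quality control genes rose at 3 of 6 sites, and the share was higher at each. Usp34, a deubiquitinase, rose at both its sites, from 0.263% and 0.152% to 1.31% and 0.667%, and Hsp90ab1, a chaperone, fell at both, from 0.127% and 0.0534% to 0.0599% and 0.0322%. The amyloid-related group had clusters in App alone, where 0 of 5 sites rose. Glial markers and m6A writers, readers and erasers had 3 and 2 genes in the table and 0 clustered sites. The 74 genes in no list rose at 59 of 190 sites (31.1%). No group was tested.

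Clusters were unevenly spread over genes. Among the genes with 3 or more, Meg3 held 34 clusters, Malat1 17, Snhg11 14, Gm37376 7, Snap25 6, Rbm25 and Ttc3 5 each, Gria2, Srrm2, Ppp3ca and Camk2n1 4 each, and Syt1, Add2, Ahi1, Kif1a and Lars2 3 each. The first 3 held 148 of the 518 sites (28.6%), and 87 genes held a single cluster. Within these genes, Meg3 rose at 36 of 82 sites with the share higher at 82, Malat1 at 11 of 37 with 32, and Snhg11 at 13 of 29 with 25. Gria2, Ppp3ca and Lars2, a mitochondrial leucyl-tRNA synthetase, rose at 0 of 14, 0 of 10 and 0 of 6 sites, by mean and by share. The Lars2 sites lie in its annotated 3' UTR, and whether the reads there came from Lars2 RNA was not tested. Rbm25 rose at 8 of 12. In 77 of the 115 genes each pair of neighbours had the same direction of mean, and in Meg3 28 of 48 pairs did.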

How the data were processed

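One deposited table of sites differing between aged and young cells was analysed. Per the submitters' processing notes the reads were handled with STAR 2.7.5 on mm10; Bullseye is named in the series' design text. For read filters, depth and the authors' statistical test, details were not given in the sources used here.

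Per site and age, the authors' table holds the percent of cells called methylated and deposited counts of those cells (not reads). The deposited mean C-to-U fraction covers all cells and is printed here as a percent. Log2 ratios of aged to young were computed from the deposited means, so that a positive value means more C-to-U in aged cells. No ratio was given where no aged cell was methylated. The p-values and adjusted p-values are as the authors deposited them. The fraction within methylated cells was computed as mean over share. Cells are not replicates and each age is pooled, so no test was added.

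Of the 789 genes, 781 were matched to GENCODE M21 transcripts by name, 6 through an older symbol and 2 had no match. Read as counted from 0, the deposited position fell on C at 1982 of 2049 placed sites, against 209 of 2048 read from 1. Printed positions count from 1. The 41 bases around 20 clustered sites recur in another annotated gene. That search covered GENCODE M21 transcripts only, so a match to other sequence would not be seen.

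Neighbours are consecutive clustered sites of a gene at most 10 bases apart. Members, 10 gene lists and named clusters were chosen with earlier results of these data known. Clusters were named by number of sites (6), summed rise or fall (6 each), gap of opposite pairs (8), closeness of pairs with at least 50 cells (4) and up to 3 per list. Some clusters that this rule names are not reported here. The code was tested on simulated tables. Python 3.11.15, pandas 2.3.3 and scipy 1.17.1 were used. The alternatives were limits of 5 and 20 bases, CT010467.1 kept, Meg3 and Malat1 left out, at least 10 methylated cells at each age, all pairs within the limit, 1 pair per gene, and sites of uncertain gene left out.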

Additional observations from a re-analysis of the deposited data

How the results depend on the processing

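A limit of at most 5 bases kept 310 clustered sites in place of 518, and one of at most 20 bases kept 710. Over the limits, CT010467.1 kept, Meg3 and Malat1 left out, at least 10 methylated cells at each age, all pairs or 1 pair per gene, and sites of uncertain gene left out (a setting chosen after seeing the data), the same direction of mean was seen in 71.0% to 77.2% of pairs and the same direction of share in 91.3% to 95.7%. The mean rose at 28.3% to 34.2% of clustered sites, and A stood before 69.0% to 74.4% of them. The site after A had the higher aged mean in 46.8% to 52.6% of mixed pairs, on both sides of an even split. No replicate could be left out, since the table pools each age. The number of aged cells limits sites with few of them.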
